A study of Mus musculus with 8 samples.

Results

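The mesothelium-rich spots of the mouse diaphragm at embryonic day E18.5 are the capture spots in which transcripts of 5 mesothelial genes, *Krt7*, *Krt19*, *Lrrn4*, *Msln* and *Slpi*, took the largest share of the RNA. Among spots with at least 1000 unique molecular identifiers (UMIs, each standing for 1 captured probe pair), the 10% of each section with the highest summed UMIs of the 5 genes divided by the spot's UMIs were taken, so that the spots were chosen by measured values of these 5 genes. This gave 346 of 3460 spots in E18.5 control 1 and 252 of 2525 in E18.5 control 2, together 598 of 5985 spots, and 946 of 9473 spots over all 4 sections at E18.5, out of 12703 such spots in the 8 sections of the series. The same rule gave 133 of 1331 spots in the CaV1.1 KO and 215 of 2157 spots in the β-cat cKO. Because a spot is a 55 µm disc that can hold several cell types, it is treated here as a small region and never as a cell.

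Gene expression was measured with probe-based 10x Visium spatial transcriptomics on 5 µm sections of formaldehyde-fixed, paraffin-embedded diaphragm, with spots 100 µm apart, to map gene expression across developing muscle. Controls were embryos that kept at least 1 working allele of CaV1.1 and at least 1 of β-catenin, so that they can carry 1 mutant allele of either gene. CaV1.1 KO embryos (CaV1.1 -/-) lacked the voltage sensor of muscle excitation-contraction coupling in every cell. β-cat cKO embryos lacked β-catenin only where Cre under the human skeletal actin promoter (HSA-Cre), which is active in skeletal muscle, had deleted the floxed gene. The paper's crosses also allow a mutant CaV1.1 allele in the β-cat cKO embryo and a floxed β-catenin allele in the CaV1.1 KO embryo. The sample titles do not give this. Each control section came from its own embryo, the day of the vaginal plug was counted as E0.5, and 3 control sections at E14.5 entered the statistical fit beside the 2 at E18.5. There was 1 section of each mutant at E18.5, and no replicate of either. The kept spots held 82850603 UMIs in control 1, 69836982 in control 2, 23947397 in the CaV1.1 KO and 61086384 in the β-cat cKO.

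The mesothelium is the single layer of flat epithelial cells that covers the serous surfaces, and it lines the diaphragm toward the pleural and the peritoneal cavity. It is of mesodermal origin yet carries keratins, junctions and apical microvilli, it makes a lubricating coat, and in the embryo it is a source of signals and of fibroblast-like cells for the organ below it. In the developing diaphragm it covers the connective tissue of the pleuroperitoneal folds, whose fibroblasts direct the migration and patterning of the muscle.

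Promoters of 3 mesothelial genes are shown, *Lrrn4* of the 5 genes that chose the spots and *Upk3b* and *Cldn15*, which the choice did not use, because they hold the letters CATTCC (or GGAATG on the other strand), the core sequence that TEAD transcription factors bind. Capitals mark these letters, and each sequence runs 5′ to 3′ on the strand of the gene, from 250 bases before to 50 bases after the transcription start of the RefSeq annotation of GRCm38.p6 (the build the files call mm10). The motif was found in 4 of 14 matched genes out of 21 mesothelial genes looked up (*Lrrn4*, *Upk3b*, *Gpm6a* and *Cldn15*). *Gpm6a* has 2 promoters and holds it in the first only. Counted by promoter and not by gene, 4817 of 32851 promoters of this length (14.7%) hold it. *Lrrn4* (ENSMUSG00000043110, chr2:132868305-132880891, minus strand) encodes a leucine-rich repeat membrane protein, *Upk3b* (ENSMUSG00000042985, chr5:136038496-136046487, plus strand) a uroplakin, and *Cldn15* (ENSMUSG00000001739, chr5:136966616-136975858, plus strand) a claudin of the tight junction. A match is a description of the letters and not evidence of binding.
Lrrn4 promoter, chr2:132880813-132881112, minus strand: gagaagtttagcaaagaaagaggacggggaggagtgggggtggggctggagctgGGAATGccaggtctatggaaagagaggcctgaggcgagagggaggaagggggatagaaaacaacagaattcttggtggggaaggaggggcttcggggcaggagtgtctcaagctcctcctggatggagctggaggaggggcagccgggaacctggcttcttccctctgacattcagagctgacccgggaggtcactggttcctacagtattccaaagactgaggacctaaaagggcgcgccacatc
Upk3b promoter, chr5:136038246-136038545, plus strand: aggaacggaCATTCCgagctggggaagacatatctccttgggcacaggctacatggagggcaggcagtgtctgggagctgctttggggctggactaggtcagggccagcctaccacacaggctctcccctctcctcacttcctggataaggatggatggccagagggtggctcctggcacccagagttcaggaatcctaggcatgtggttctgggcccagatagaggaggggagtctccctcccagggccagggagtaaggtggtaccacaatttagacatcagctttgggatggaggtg
Cldn15 promoter, chr5:136967619-136967918, plus strand: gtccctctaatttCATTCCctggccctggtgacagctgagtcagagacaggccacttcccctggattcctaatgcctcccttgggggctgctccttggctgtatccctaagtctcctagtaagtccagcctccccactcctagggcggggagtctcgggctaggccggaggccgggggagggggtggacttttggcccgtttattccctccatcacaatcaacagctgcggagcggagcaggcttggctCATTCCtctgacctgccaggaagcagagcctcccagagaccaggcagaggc

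The values of the 5 genes that set the choice are given as a description only, since the choice itself fixes that the chosen spots hold more of them. The last spot taken and the first left out held 1.79 and 1.79 UMIs of the 5 genes per 10000 UMIs in control 1 and 5.94 and 5.93 in control 2. In the mutants the same pair of values was 21.1 and 21.0 in the CaV1.1 KO and 15.3 and 15.3 in the β-cat cKO, where it was 9.57 and 9.56 with squamous epithelium spots, described further on, left out. The limit is thus a point on a continuous scale and lay higher in the mutant sections than in the controls. Within 10% of it lay 15 spots taken and 16 left out in control 1, and 16 and 27 in control 2. The chosen spots held 79.7% of all UMIs of the 5 genes in control 1, 64.6% in control 2, 33.7% in the CaV1.1 KO and 67.0% in the β-cat cKO (43.4% with squamous spots left out). In the CaV1.1 KO most transcripts of the 5 genes therefore lay outside the chosen spots. At least 3 of the 5 genes were seen in 89.6% of the chosen spots against 2.34% of the others in control 1, and in 98.8% against 23.1% in control 2.

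Gene levels are scaled CPM, a gene's UMIs per 1000000 UMIs of the summed spots, corrected by edgeR's TMM factors. By these values, which are used for gene levels below unless raw CPM is named, the 5 genes that chose the spots had these levels. *Krt7*, a simple epithelial keratin, stood at 224 CPM in mesothelium-rich spots against 7.53 in the rest of the section in control 1, and at 420 against 28.8 in control 2. *Msln* (mesothelin), a surface glycoprotein that binds the mucin Muc16, stood at 287 against 12.5 and at 531 against 32.5. *Slpi*, a secreted protease inhibitor, differed most between the controls, with 43.2 against 2.34 in control 1 and 414 against 14 in control 2. Values after ± are approximate standard errors (SE), the absolute log2 difference divided by the square root of edgeR's F statistic. To read each of the 5 genes on spots that it did not help to choose, spots were ranked again by the other 4 genes. The log2 differences then ran from 4.09 ± 0.32 for *Krt19* to 4.4 ± 0.22 for *Slpi*. In that fit edgeR's adjusted p lay between 1.59e-06 (*Msln*) and 9.63e-05 (*Krt19*), and since the 5 genes were picked for marking the same layer nothing further rests on it. Across single spots the 10 pairs of these genes had Pearson r from 0.29 to 0.80 in control 1 (3460 spots) and from 0.54 to 0.83 in control 2 (2525 spots), with *Slpi* in the weakest pair of both, as a description of spots that share a library and differ in depth.

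In the β-cat cKO the chosen spots were mixed, since 123 of the 215 (57.2%, exact 95% binomial interval 50.3 to 63.9%) held more than 10 UMIs per 10000 of 7 squamous epithelium genes (*Krt5*, *Krt15*, *Krt13*, *Krt4*, *Krt6a*, *Trp63* and *Sox2*). That section had 334 such spots in all, and the other sections at E18.5 had 0, where, at the limit of 3 counts that a count of 0 allows, 0 of 346 spots in control 1 gives a share of up to 0.867%, 0 of 252 in control 2 up to 1.19% and 0 of 133 in the CaV1.1 KO up to 2.26%. The 7 genes and the limit of 10 were set after these spots had been seen. Values of the β-cat cKO without these spots come from 182 spots chosen anew among the 1823 left.

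Mesothelial genes that the rule did not use rose with the 5 that it used. Differences were tested with edgeR's quasi-likelihood test on UMIs summed over the mesothelium-rich spots and over the rest of each of the 5 control sections, with the section as a block, and called at a Benjamini-Hochberg adjusted p under 0.05, so that n is 2 sections at E18.5 and the spread is estimated with the 3 at E14.5. Of 16 further mesothelial genes, *Krt18* has no probe, 15 were tested, 14 were called higher and 0 lower, against a background of 12.1% of all 13991 genes tested called higher and 14% called lower. Their median log2 difference was 3.44 against -0.03 over all genes tested. All 14 were also called when any 1 of the 5 sections was left out. In sums of spots, fewer cells of a type and less RNA per cell cannot be told apart, which holds for every difference given here.

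*Upk3b*, a uroplakin used as a marker of mesothelial cells, stood at 53.4 CPM in mesothelium-rich spots against 1.67 in the rest in control 1 and at 59.0 against 4.58 in control 2. This is a 19.7-fold difference (log2 4.30 ± 0.31, edgeR adjusted p = 4.12e-05), and both mesothelium-rich values lie above both others. *Muc16*, the membrane mucin of the mesothelial glycocalyx, stood at 43.5 against 1.22 and at 46.7 against 3.96 (log2 4.29 ± 0.41, edgeR adjusted p = 0.00019). *Gpm6a*, a membrane glycoprotein, stood at 160 against 7.57 and at 188 against 19.9 (log2 3.80 ± 0.25, edgeR adjusted p = 2.62e-05). All 3 were thus between 13.9-fold and 19.7-fold higher, and their levels in mesothelium-rich spots were close in the controls while the rest of control 2 held more of each. The size depended on the sections used. When 1 was left out the log2 difference ran from 3.63 to 4.88 (*Upk3b*), 3.51 to 5.04 (*Muc16*) and 3.19 to 4.29 (*Gpm6a*).

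*Wt1*, a transcription factor of mesothelium and its fibroblast offspring, rose less. It stood at 57.8 CPM against 12.8 in control 1 and at 66.3 against 16.2 in control 2, a 4.3-fold difference (log2 2.10 ± 0.12, edgeR adjusted p = 1.62e-05). *Pdpn* (podoplanin), which lymphatic vessels and fibroblasts also make, was called at log2 1.34 ± 0.11, with 155 against 67.7 and 203 against 72.7. These 2 and *Krt8* (2.07 ± 0.28) had the smallest differences of the 14. *Calb2* (calretinin), a marker of adult human mesothelium, was near 0 everywhere, with 0.529 CPM against 1.1 in control 1 and 0.388 against 0.538 in control 2, and was not called (log2 -0.80 ± 0.71, edgeR adjusted p = 0.451).

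Along the ranking the signal of the other 15 mesothelial genes fell in steps and did not drop at the limit alone. In control 1 their summed raw CPM was 1383 in the first 5% of spots, 412 in the next 5%, 135 from 10% to 20%, 94.1 from 20% to 40% and 80.7 beyond. Control 2 gave 1166, 723, 314, 146 and 105 in the same bands. The fall from the first to the second band was steeper in control 1 than in control 2. The CaV1.1 KO fell more slowly, from 1452 over 1203 and 922 to 558 and 154, so that mesothelial signal there reached well past the first 10% of spots. The β-cat cKO held 917 in its first band, which is less than the 1105 of its second. With squamous spots left out its bands held 1614, 1019, 669, 289 and 108, so that the first was then the highest.

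**Figure D1:**
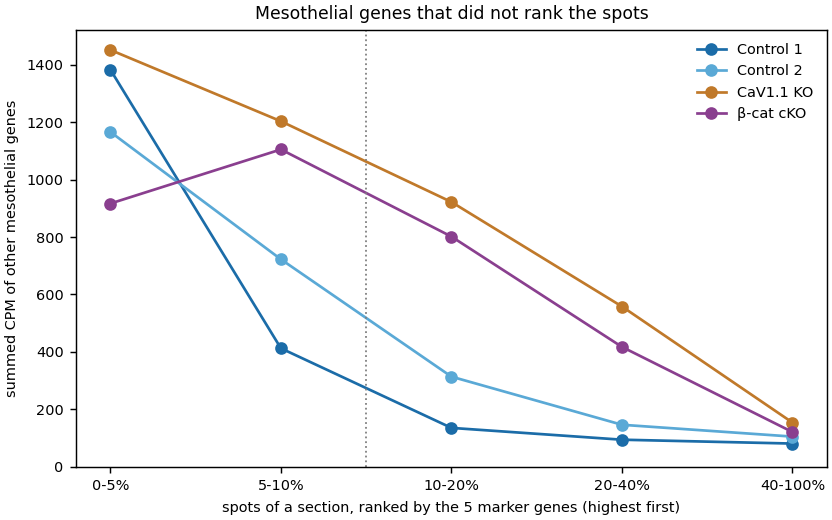
Summed raw CPM of the 15 mesothelial genes that the rule did not use (y axis) by band of the ranking on the 5 rule genes (x axis, percent of spots from the top), 1 line for each of the 4 sections at E18.5, with the dotted line after the band from 5 to 10%. The controls fall from 1383 and 1166 to 80.7 and 105, and the β-cat cKO starts lower (917) than its second band (1105).

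The spots were not scattered evenly. Position values are descriptions of single sections, without a test, and their exact binomial intervals cover counting error only. Of the mesothelium-rich spots 56.6% (51.2 to 61.9%) in control 1 and 65.9% (59.7 to 71.7%) in control 2 lay within 100 µm of a position off the tissue, against 12.6% and 20.6% of the other spots. The CaV1.1 KO had 55.6% (46.8 to 64.2%) against 28.7%, and the β-cat cKO 40% (33.4 to 46.9%) against 24.8%, or 35.7% (28.8 to 43.1%) against 21.1% with squamous spots left out. In each of the 4 sections, and in the β-cat cKO also without squamous spots, the share at the margin was higher among the chosen spots than among the others. They also lay in groups, since 63.3% of the neighbours of a mesothelium-rich spot in control 1 and 57.2% in control 2 were mesothelium-rich too, where the rule takes 10% of all spots.

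The controls differed in where the spots lay with respect to muscle. Muscle spots are those above the Otsu threshold of 9 muscle genes in their section. Outside them lay 58.7% (53.3 to 63.9%) of the mesothelium-rich spots in control 1 but 18.7% (14 to 24%) in control 2. The rest of each section lay outside muscle to 5.30% and 12.3%. In the CaV1.1 KO 94.0% of the mesothelium-rich spots lay outside muscle, against 32.8% of the other spots. In the β-cat cKO 85.1% of the chosen spots, squamous ones included, lay outside muscle, against 20.4% of the others. With squamous spots left out these shares were 59.9% (52.4 to 67.1%) and 14.6%. Most mesothelium-rich spots of control 2 were therefore also muscle spots, 205 of 252, as were 143 of 346 in control 1. The other mesothelial genes were high in both kinds, with summed raw CPM in control 1 of 1247 outside and 482 in muscle (against 206 and 85.3 in other spots of the same kind) and in control 2 of 1091 and 910 (against 261 and 123). At the margin control 1 held 1046 against 638 in mesothelium-rich spots further inside, and control 2 held 1029 against 813.

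**Figure D2:**
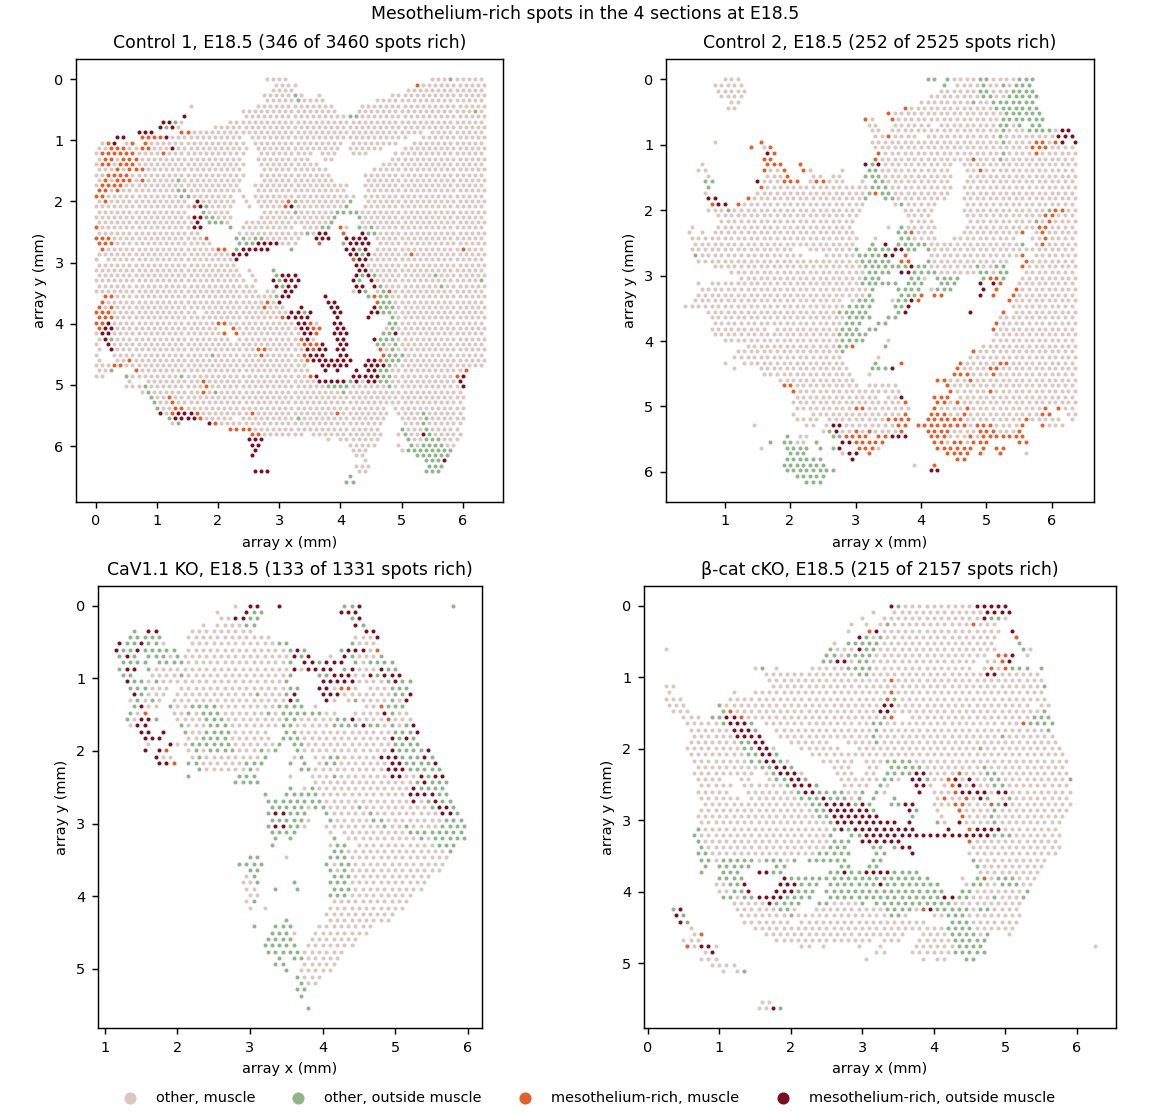
Spots of the 4 sections at E18.5 at their places on the slide (both axes in mm), coloured by class: mesothelium-rich outside muscle, mesothelium-rich in muscle, other muscle spots and other spots outside muscle. The β-cat cKO's chosen spots include 123 squamous ones. Mesothelium-rich spots lie along margins and in groups, mostly outside muscle in control 1 (203 of 346) and mostly in muscle in control 2 (205 of 252).

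Against the rest of the section, 1687 of 13991 genes were called higher and 1965 lower by edgeR's quasi-likelihood test. The split depends on the scaling, since without TMM factors 3067 were called higher and 622 lower, with a median over all genes of 0.22 in place of -0.03, and no called gene changed its sign. Leaving out control 1 left 702 higher and 999 lower, and leaving out control 2 left 1539 and 2983.

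The 12 largest differences among called genes with at least 20 CPM in mesothelium-rich spots ran from 3.83 to 4.35 on the log2 scale, with *Krt14*, *Upk3b* and *Dmkn* first. *Krt14*, a keratin of basal epithelial cells, had the largest of these, with 51.3 CPM against 2.62 in control 1 and 143 against 6.76 in control 2 (log2 4.35 ± 0.15, edgeR adjusted p = 8.29e-07). The fitted difference was 20.4-fold, at levels that were higher in control 2 in both kinds of spots. *Dmkn* (dermokine, a secreted protein of differentiating epidermis) stood at 73.5 against 2.53 and 85.0 against 6.18 (4.30 ± 0.31), *Evpl* (envoplakin, a plakin of the cornified envelope) at 58.7 against 2.26 and 74.3 against 6.13 (4.11 ± 0.30), and *Lgals7* (galectin-7, a lectin of stratified epithelia) at 127 against 4.41 and 113 against 15.0 (3.83 ± 0.35). Of the 8 squamous epithelium genes, 4 keratins had few UMIs in these spots, with 0 UMIs of *Krt13* in either control, 0 and 1 UMI of *Krt5*, 1 and 0 of *Krt4* and 3 and 3 of *Krt6a*. *Krt15* was called higher from 0.264 CPM against 0.0571 and 1.75 against 0.215 (2.74 ± 0.73, edgeR adjusted p = 0.0218), and *Trp63*, the basal cell transcription factor, was called lower (-0.82 ± 0.13), with 19.8 against 33.8 and 19.4 against 35.6. The summed raw CPM of the 8 squamous genes was 64.7 against 26.0 in control 1 and 133 against 31.6 in control 2, with *Krt14* the most abundant.

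The other leading genes included *Bnc1* (basonuclin, a transcription factor, 4.29 ± 0.34), *Pkhd1l1* (4.11 ± 0.46), *Tmem151a* (4.10 ± 0.33), *Crb2* (a Crumbs polarity protein, 4.05 ± 0.28), *Clic3* (3.97 ± 0.29) and *Gjb5* (a gap junction connexin, 3.93 ± 0.47). *Crb2* stood at 18.2 CPM against 0.837 in control 1 and at 27.2 against 2.07 in control 2. With *Upk3b* and *Muc16* they complete the 12. *Bnc1*, *Pkhd1l1*, *Upk3b* and *Muc16* are members of the mesothelial list, and the other 8 are not.

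**Figure D3:**
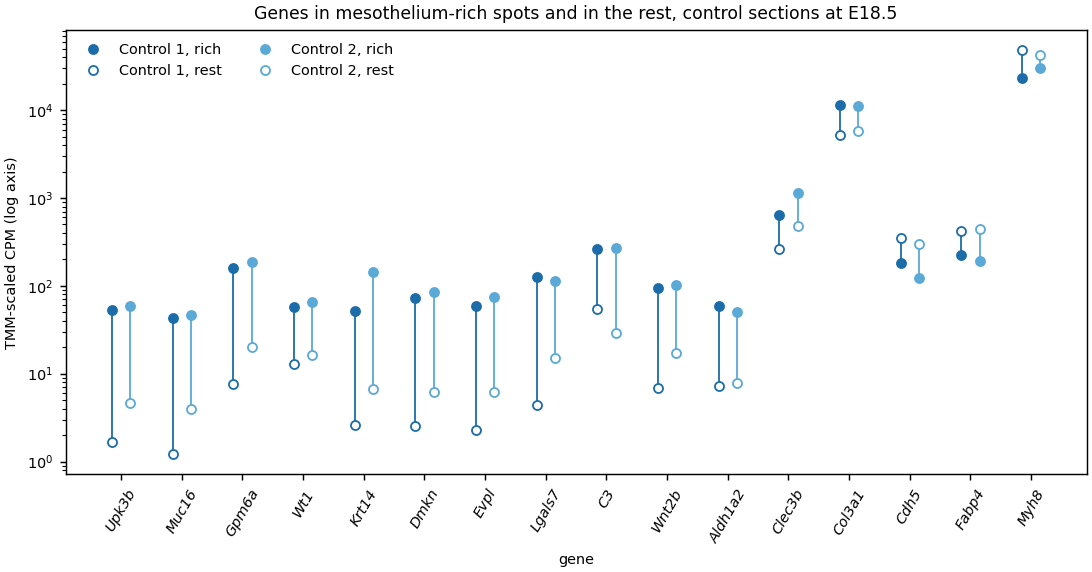
Scaled CPM (y axis, log scale) of 16 genes in mesothelium-rich spots and in the rest of the section, 1 pair of points for each of E18.5 controls 1 and 2. From *Upk3b* (53.4 and 59.0 against 1.67 and 4.58) to *Col3a1* the mesothelium-rich values are higher in both controls, whereas *Cdh5*, *Fabp4* and *Myh8* are lower.

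Genes of the tissue below the mesothelium moved with these spots. Of 12 fibroblast genes 11 were called higher (median log2 1.15), with *Dpt* the exception, and between 9 and 11 when a section was left out. *Col3a1*, a fibrillar collagen, stood at 11408 CPM against 5155 in control 1 and 11040 against 5809 in control 2 (log2 1.04 ± 0.15, edgeR adjusted p = 0.00191), and *Col1a1* was higher by 1.18 ± 0.20. *Clec3b* stood at 635 against 265 and 1126 against 475 (1.25 ± 0.09), and *Sulf1*, a heparan sulfate sulfatase, at 499 against 84.9 and 536 against 122 (2.34 ± 0.19), the largest difference of the list. The fitted difference of *Col3a1* was 2.05-fold, far smaller than that of most mesothelial genes. The summed raw CPM of the list was 44371 against 12954 in control 1 and 38740 against 20188 in control 2.

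Macrophage genes rose as well, 6 of 9 tested (*Csf1r*, *Cd68*, *C1qa*, *C1qb*, *C1qc*, *Mrc1*), with 4 to 7 when a section was left out. *C1qa*, a complement C1q chain made by tissue macrophages, stood at 164 CPM against 75.0 in control 1 and 201 against 110 in control 2 (log2 1.0 ± 0.13, edgeR adjusted p = 0.00101). Of 7 neutrophil genes 3 were called higher (*S100a9*, *Ngp* and *Camp*), but with the top 5% of spots all 3 had negative log2 differences (-1.26, -1.73 and -1.85), as with all 4 sections at E18.5 (-0.58, -0.45 and -0.16). *S100a9* stood at 35.7 against 22.0 and 14.2 against 7.49, and of the list edgeR called 0 with liver-rich spots left out (0 at an unadjusted p under 0.05) and 0 without control 1 (3 unadjusted), while DESeq2 called 2 on all spots. Of 9 tendon genes *Mkx*, *Fmod*, *Col11a1* and *Antxr1* were called higher, but without control 1 1 was higher and 2 lower.

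Vessel and muscle genes were lower. Of 9 endothelial genes 6 were called lower (median log2 -0.96), and 6 to 8 when a section was left out. *Cdh5* (VE-cadherin) stood at 182 CPM against 350 in control 1 and 121 against 303 in control 2 (-1.13 ± 0.20, edgeR adjusted p = 0.00418), and *Kdr*, *Emcn*, *Egfl7*, *Pecam1* and *Ptprb* were lower too. *Rgs5*, a pericyte gene, had the largest decrease among called genes with at least 20 CPM in the rest, with 31.7 against 75.7 and 22.1 against 64.0 (-1.38 ± 0.16), and *Acta2* was the only other of 6 smooth muscle genes called lower (4 without control 1). *Sox17* (-1.33 ± 0.22), *Adgrl4* (-1.27 ± 0.26) and *Prnd* (-1.21 ± 0.18), which endothelial cells make, were also among the 8 largest decreases, with *Higd1b*, *Aqp4*, *Myh4* and *Aqp7*. The capillary fatty acid binding protein gene *Fabp4* stood at 224 against 426 and 191 against 449 (-1.08 ± 0.19). For each of these genes with values given here, both mesothelium-rich values lay below both values of the rest.

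All 12 muscle genes were called lower (median log2 -0.72), for example the perinatal myosin *Myh8*, at 23072 CPM against 47892 in control 1 and 30358 against 43029 in control 2 (-0.78 ± 0.19, edgeR adjusted p = 0.0165). These calls rest on the E14.5 sections, with 2, 5 and 4 of the 12 called without E14.5 control 1, 2 or 3, and 0 (2 at an unadjusted p under 0.05) in the edgeR fit of the E18.5 controls alone, while DESeq2 called 12. Their summed raw CPM was 123032 against 198105 in control 1 and 154689 against 190036 in control 2, so that mesothelium-rich spots still held much muscle RNA.

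By edgeR 0 genes were called either way of the hepatocyte, cartilage, cell cycle, erythroid and lymphatic lists and of the 1 lung gene tested, by DESeq2 0 as well, and at an unadjusted p under 0.05 there were 0 of hepatocyte, cartilage, lung and cell cycle, 1 of erythroid and 3 of lymphatic genes. These counts of 0 hold for all 5 sections together. Without control 1 edgeR called 3 cartilage and 4 erythroid genes lower and 1 hepatocyte gene higher, and without control 2 it called 4 cartilage, 1 lymphatic and 1 cell cycle gene higher and 1 hepatocyte gene lower. Without E14.5 control 1 or 2 it called 1 erythroid gene lower, and without E14.5 control 2 also 1 lymphatic gene higher. The E18.5 controls ran in opposite directions for cartilage, whose list held 2057 raw CPM against 877 in control 1 and 99.8 against 204 in control 2. *Mki67*, a gene of cycling cells, stood at 156 CPM against 146 in control 1 and 93.1 against 106 in control 2 (log2 -0.04 ± 0.11). Of 8 Schwann cell genes *Mbp* was higher, a share near the 12.1% of all genes called higher. *Erbb3* and *Foxd3* were lower, where 14% of all genes were called lower. Of 5 epithelial genes of other organs *Cldn3* was called higher by edgeR (0 by DESeq2), at 9.65 against 0.247 and 13.2 against 0.689 (4.70 ± 0.57), while *Epcam*, the general marker of endodermal and ectodermal epithelia, stood at 0.397 against 0.266 and 0.970 against 0.194 and was not called.

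Genes of junctions and of the apical cell surface were higher in part, 8 of 17 tested and 0 lower. *Ezr* (ezrin), which links microvilli to actin, stood at 132 CPM against 27.1 in control 1 and 217 against 43.8 in control 2 (log2 2.29 ± 0.15, edgeR adjusted p = 2.62e-05), and its partner *Slc9a3r1* (NHERF1) at 119 against 24.2 and 235 against 36.1 (2.5 ± 0.24). *Cdh3* (P-cadherin, 2.46 ± 0.26), *Dsp* (desmoplakin, 2.16 ± 0.27), *Dsg2* (desmoglein 2, 2.29 ± 0.36), *Cgn* (cingulin of tight junctions, 2.92 ± 0.25) and the polarity gene *Pard6b* (1.74 ± 0.22) rose as well, and *F11r* by 0.46 ± 0.13. *Tjp1*, the tight junction scaffold of most cell types, stood at 121 against 118 and 118 against 114 and was not called. *Jup* (plakoglobin of desmosomes and adherens junctions) stood at 184 against 184 and 213 against 222 and was not called either, so that part of the list rose.

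Among genes of the lubricating coat, *Has1* and *Muc16* were called of 12 tested, a share near the 12.1% of all genes called higher. *Has1*, a hyaluronan synthase, stood at 12.4 CPM against 0.361 in control 1 and 9.31 against 1.59 in control 2 (log2 3.73 ± 0.64, edgeR adjusted p = 0.00601), while *Has2* stood at 13.7 against 10.0 and 6.98 against 9.23 and was not called. The log2 difference of *Has1* ran from 2.49 to 4.97 when 1 section was left out. Without control 2 there were 6 calls. The lubricant gene *Prg4* was low, with 4.63 against 1.31 and 3.88 against 2.58, and was not called.

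*Aldh1a2*, whose enzyme makes retinoic acid, was 7.2-fold higher, with 58.3 CPM against 7.27 in control 1 and 50.6 against 7.90 in control 2 (log2 2.85 ± 0.15, edgeR adjusted p = 1.17e-05). *Aldh1a1* (1.29 ± 0.26), the dehydrogenase gene *Rdh10* (0.37 ± 0.10), the retinaldehyde reductase gene *Dhrs3* (1.06 ± 0.11) and the receptor gene *Rarg* (0.80 ± 0.15) were higher too. *Rarg* ranged from 0.38 to 1.04 when 1 section was left out. Of the list 6 of 15 tested were called higher and 0 lower, and 3 higher without control 1. The retinoic acid degrading enzymes *Cyp26a1* and *Cyp26b1* were not called.

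Of 17 Wnt genes 7 were called higher and 0 lower, and 5 to 8 when a section was left out. The ligand gene *Wnt2b* stood at 93.9 CPM against 6.83 in control 1 and 101 against 17.2 in control 2 (log2 3.15 ± 0.30, edgeR adjusted p = 0.000192), and *Rspo1*, which enhances Wnt signalling at the receptor, at 64.2 against 4.03 and 113 against 11.2 (3.64 ± 0.21). The secreted inhibitors *Sfrp1* (1.30 ± 0.16) and *Sfrp2* (1.97 ± 0.17) rose also, with *Wnt5a*, *Wnt5b* and *Dkk3*. *Axin2*, a target gene of β-catenin signalling, stood at 74.4 against 89.4 and 99.7 against 108 and was not called (-0.19 ± 0.17, edgeR adjusted p = 0.466). Ligand and inhibitor genes were thus higher without a called difference in this target.

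Of 10 complement genes tested 7 were called higher, and 6 or 7 when a section was left out. *C3*, the central complement component, stood at 264 CPM against 54.4 in control 1 and 269 against 29.2 in control 2 (log2 2.73 ± 0.19, edgeR adjusted p = 3.56e-05). *C4b*, *Cfb*, *C1ra* and the regulators *Serping1* and *Cd55* rose by 1.33 to 2.28. Of 11 insulin-like growth factor genes *Igf1*, *Igfbp3*, *Igfbp4*, *Igfbp5* and *Igfbp6* were called higher and *Igf2* lower, but without control 1 the count of higher genes was 2 and without control 2 that of lower genes 3. *Igfbp6* stood at 214 against 58.2 and 373 against 117 (1.77 ± 0.20). Of 22 BMP and TGFβ genes 7 were higher (*Bmp3*, *Bmp7*, *Chrdl1*, *Smad6*, *Tgfb3*, *Inhbb* and *Fst*) and *Nog* lower. Without control 1 edgeR called 0 higher and 1 lower (1 and 1 at an unadjusted p under 0.05), without E14.5 control 3 4 higher, and DESeq2 called 2 higher. Of 18 FGF and hedgehog genes *Fgf18* was higher (1.21 ± 0.24) and the muscle receptor *Fgfr4* lower (-0.63 ± 0.14), and without control 1 edgeR called 0 higher (3 at an unadjusted p under 0.05, 1 by DESeq2 on all sections). These counts of 1 lie below the shares of all genes called, 12.1% higher and 14% lower.

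Among basement membrane genes, those of type IV collagen differed in direction by chain. The type IV collagen genes *Col4a3* (log2 3.82 ± 0.47), *Col4a4* (3.51 ± 0.47), *Col4a5* (1.67 ± 0.16) and *Col4a6* (3.20 ± 0.37) were higher, whereas *Col4a1* (-0.60 ± 0.14) and *Col4a2* (-0.48 ± 0.11), whose chains are found in nearly every basement membrane, were lower. *Col4a5* stood at 31.9 CPM against 10.9 in control 1 and 50.4 against 14.6 in control 2 (edgeR adjusted p = 0.0002), and *Col4a1* at 847 against 1231 and 879 against 1391 (edgeR adjusted p = 0.0128). With *Lamb3*, *Nid2*, *Agrn* and *Fras1* this makes 8 of 25 higher and 2 lower, and 7 or 8 higher when a section was left out. The share of the list called higher lies above the 12.1% of all genes called higher. The share called lower, 2 of 25, lies below the 14% of all genes called lower. In the fit of the 2 E18.5 controls alone neither *Col4a1* nor *Col4a2* was called.

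Of 19 genes tied to diaphragm development or hernia 11 were higher and *Sox7*, an endothelial transcription factor gene, lower, and 10 or 11 were higher when a section was left out. The transcription factor gene *Gata6* stood at 56.2 CPM against 12.3 in control 1 and 57.6 against 18.1 in control 2 (log2 1.94 ± 0.15, edgeR adjusted p = 6.76e-05), and *Gpc3*, a glypican, at 685 against 305 and 813 against 333 (1.23 ± 0.12). *Lrp2* (megalin) was low but higher, with 10.6 against 0.152 and 7.18 against 0.925 (4.29 ± 0.69). Its log2 difference ran from 2.90 to 5.95 when 1 section was left out. *Gata4*, *Zfpm2*, *Fras1*, *Efnb1*, *Slit3*, *Lox* and *Wt1* were also among the genes called higher. Of 7 genes of epithelial-mesenchymal transition *Snai1* and *Twist1* were called higher by edgeR and by DESeq2, while without control 1 edgeR called 0 higher and 1 lower (2 and 2 at an unadjusted p under 0.05).

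**Figure D4:**
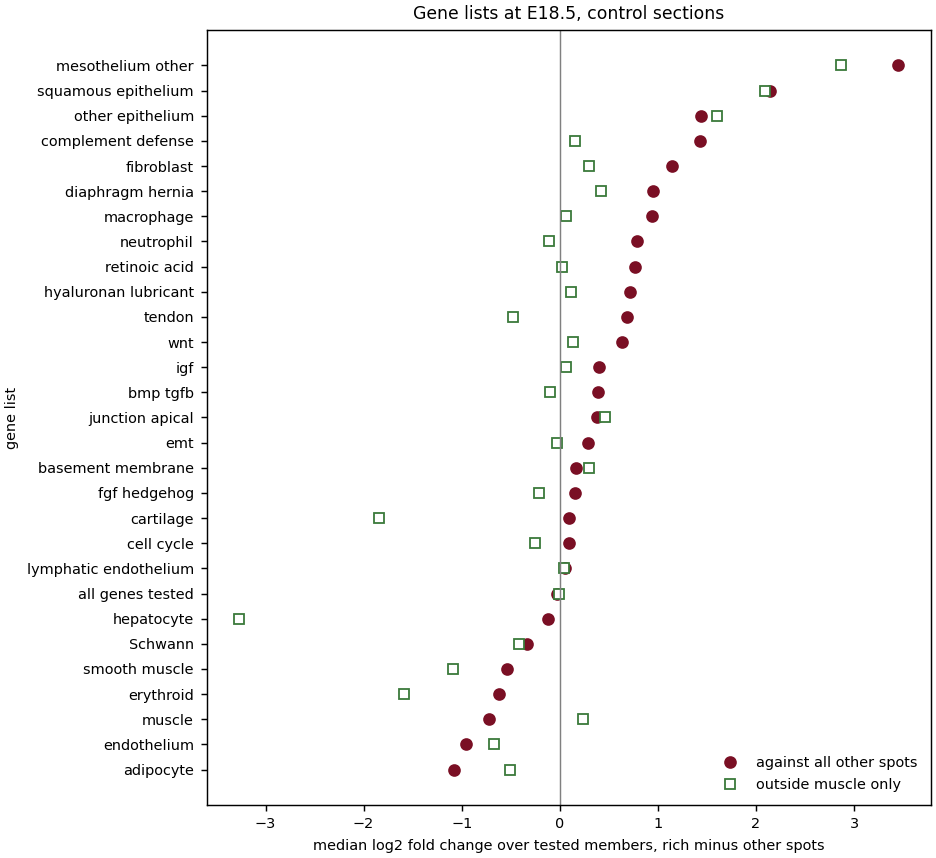
Median log2 difference (x axis) of the tested members of each gene list (y axis) between mesothelium-rich spots and all other spots (filled dots) and, outside muscle only, between mesothelium-rich and other spots (open squares), both from edgeR fits. The other mesothelial genes stand at 3.44 and 2.87, the fibroblast list falls from 1.15 to 0.30, and the muscle list moves from -0.72 to 0.24 where muscle spots were removed from both sides.

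Since the rest of a section is mostly muscle, mesothelium-rich spots were also compared with other spots outside muscle, with muscle spots left out on both sides (203 against 165 spots in control 1 and 47 against 279 in control 2). Here 222 of 12767 genes were called higher (1.74%) and 213 lower (1.67%). Without control 1 the counts were 71 and 79, without control 2 132 and 189, and without E14.5 control 1 292 and 321, and without the section block edgeR called 19 and 0 (453 and 388 at an unadjusted p under 0.05).

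The mesothelial genes held in this comparison. All 14 other mesothelial genes tested were called higher (median log2 2.87), and at least 12 when a section was left out. *Upk3b* stood at 89.5 CPM against 4.32 in control 1 and 58.7 against 8.53 in control 2 (3.43 ± 0.35, edgeR adjusted p = 0.000105), *Aldh1a2* at 90.1 against 12.2 and 61.3 against 10.5 (2.72 ± 0.23), and *Wt1* at 90.6 against 33.8 and 128 against 29.9 (1.75 ± 0.18). Among called genes with at least 20 CPM in mesothelium-rich spots *Krt14* again had the largest difference, with 70.0 against 3.14 and 94.5 against 5.62 (4.20 ± 0.30). It was followed by *Cldn3*, *Muc16*, *Cldn15*, *Dmkn*, *Lratd1*, *Upk3b*, *Anxa8* (an annexin), *Pkhd1l1*, *Evpl*, *Bnc1* and *Upk1b*, from 3.63 to 3.26.

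For the 9 macrophage genes edgeR called 0 (0 at an unadjusted p under 0.05) and DESeq2 0, with a median of 0.07. Muscle genes cannot be read here, since spots rich in muscle genes were removed from both sides. Of 12 fibroblast genes *Clec3b*, *Sulf1*, *Fbln1* and *Mfap5* were called higher, and 2 without either E18.5 control. *Col3a1* stood at 15856 CPM against 12966 in control 1 and 15288 against 13093 in control 2 (log2 0.26 ± 0.13, edgeR adjusted p = 0.451). Of the endothelial list 1 gene, *Egfl7*, was lower (-0.67 ± 0.17), 4 without E14.5 control 1, and 0 without either E18.5 control (5 and 2 at an unadjusted p under 0.05, and DESeq2 called 0 on all sections).

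In junctions *Cgn*, *Pard6b*, *Ezr*, *Slc9a3r1* and *Podxl* were higher, 5 of 16, and 3 without control 1. *Ezr* stood at 198 CPM against 59.7 in control 1 and 186 against 75.8 in control 2 (log2 1.52 ± 0.18, edgeR adjusted p = 0.000355). In basement membrane *Lama5*, *Col4a5*, *Col4a6*, *Nid2*, *Npnt* and *Fras1* were higher, 6 of 24, and 4 to 7 when a section was left out. *Fras1*, which anchors epithelium to the tissue below, stood at 191 against 45.6 and 126 against 42.6 (1.84 ± 0.16, edgeR adjusted p = 2.76e-05), and *Col4a1* was not called (-0.46 ± 0.18, edgeR adjusted p = 0.261). The growth factor gene *Fgf1*, which did not differ by call from the whole rest, was 3.61-fold higher outside muscle, with 90.4 against 28.3 and 112 against 27.4 (1.85 ± 0.19, edgeR adjusted p = 9.39e-05).

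*Wnt2b* (1.74 ± 0.27) and *Rspo1* (2.35 ± 0.26) stayed called of 16 Wnt genes and *Rspo3* was lower (-0.85 ± 0.18), where 1 was higher without control 1 and 4 without E14.5 control 1. Of 11 insulin-like growth factor genes *Igfbp5* and *Igfbp6* were higher and *Igfbp1* lower, and 1 was higher without control 1. Of 15 retinoic acid genes *Aldh1a2* and *Dhrs3* were higher, and 1 without control 2. *Rbp4* was called lower, but its log2 difference was 0.092 without control 1, the direction thus resting on that section. Of 19 hernia genes *Wt1*, *Gata6*, *Fras1*, *Efnb1*, *Gpc3* and *Lrp2* were higher, and 3 without control 1. For the 20 BMP and TGFβ genes edgeR called 0 (2 higher and 4 lower at an unadjusted p under 0.05) and DESeq2 0.

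*C3* split the controls outside muscle, with 460 CPM against 716 in control 1 and 346 against 84.9 in control 2 (log2 0.54 ± 0.42, edgeR adjusted p = 0.710). Hepatocytes also make *C3*, and control 1 had 51 spots rich in hepatocyte transcripts (7 of them mesothelium-rich), control 2 had 0. With such spots left out of every control section, also at E14.5, and the spots ranked anew, *C3* was higher by 2.46 (edgeR adjusted p = 7.9e-06). Without control 1 it was higher by 2.03, whereas without control 2 it was lower by 0.67 on the log2 scale (-0.67). The part of hepatocytes in this split was not tested. Genes of liver, cartilage and nerve were among those called lower outside muscle, and with liver spots left out 78 of the 213 lower genes were still called. Of 8 hepatocyte genes 7 were lower, for example *Alb* (albumin) at 1600 against 14102 in control 1 and 0 against 0.181 in control 2, and edgeR called 0 without control 1, 1 with liver spots left out, and DESeq2 0. Of 7 cartilage genes 5 were lower, 3 without control 1, with *Col2a1* at 606 against 1467 and 269 against 1223 (-1.69 ± 0.19, edgeR adjusted p = 0.000202). Among the 8 largest decreases were the nerve genes *Slc6a2*, *Tubb3*, *Gng3* and *Snap25*, highest in the other spots of control 2 (*Tubb3* 0 against 101), and the liver genes *Hp*, *Igfbp1*, *Azgp1* and *Crp*, highest in those of control 1 (*Hp* 7.0 against 205).

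The difference between mesothelium-rich spots and the rest was compared with that at E14.5, where the same rule gave 81, 84 and 68 spots in 3 controls and edgeR called 705 genes higher (5.04%) and 1258 lower (8.99%). The stage term of the same edgeR fit called 36 of 13991 genes (0.257%) with a larger difference at E18.5 and 6 (0.0429%) with a smaller one. Without the section block it called 0 and 0 (862 and 329 at an unadjusted p under 0.05), without E14.5 control 1 4 and 0 (866 and 329), without E14.5 control 2 14 and 2, without E14.5 control 3 12 and 3, and without E18.5 control 2 352 and 877, while DESeq2 called 68 and 34. E14.5 controls 1 and 2 were counted with Space Ranger 2.0.0 and the others with 2.0.1, and the part of this difference was not tested.

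Against other spots outside muscle the stage term called 5 of 12767 genes (0.0392%) with a larger difference and 4 (0.0313%) with a smaller one, and none of the 10 genes named for stage, so that the differences given next were called only against the whole rest of the section, which is mostly muscle.

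Against that rest, the genes with a larger difference at E18.5 included *C3*, *Myo5b*, *Galnt6*, *Slc39a8* and *Nkain4*. *C3* was low throughout at E14.5, with 0 CPM in mesothelium-rich spots against 0.629 in the rest, 6.13 against 20 and 5.20 against 11.1 in controls 1, 2 and 3, and its log2 difference was 4.35 ± 0.39 larger at E18.5 (edgeR adjusted p = 0.00515). *Nkain4*, of the mesothelial list, stood at 9.03 against 7.52, 20.3 against 8.34 and 12.1 against 9.29 at E14.5 and at 61.7 against 5.00 and 91.4 against 10.3 at E18.5 (2.57 ± 0.29, edgeR adjusted p = 0.00826). *Podxl* (podocalyxin), a sialomucin of apical and vessel surfaces, went the other way, with 130 against 29.0, 163 against 33.3 and 72.8 against 24.5 at E14.5 but 66.2 against 48.5 and 51.2 against 51.8 at E18.5 (-1.85 ± 0.21, edgeR adjusted p = 0.00826). *Podxl* was called higher in these spots at E14.5 and was not called at E18.5 (0.23 ± 0.15, edgeR adjusted p = 0.314). Outside muscle it was called higher at both stages, with edgeR adjusted p of 1.35e-05 at E14.5 and 0.005 at E18.5, and the stage terms there were -0.82 ± 0.23 for *Podxl* (edgeR adjusted p = 0.369), 3.14 ± 0.92 for *C3* (0.411) and 1.68 ± 0.42 for *Nkain4* (0.286).

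In the mutants there is 1 section each, so their values carry no test, intervals are exact Poisson 95% intervals for counting error only, and a difference from the controls cannot be told apart from one between sections. In raw CPM the summed mesothelial signal of the CaV1.1 KO section was higher than in the controls. Raw CPM leaves out the TMM factors, which for mesothelium-rich sums were 1.16 in the CaV1.1 KO against 0.90 and 0.81 in controls 1 and 2. Scaling by them lowers the former and raises the latter, so the order of the mesothelium-rich sums need not hold on scaled values. The 5 rule genes took 645 raw CPM of all its spots against 104 and 220 in the controls, and the other 15 mesothelial genes 1300 in mesothelium-rich spots against 339 in the rest (847 against 90.2 and 934 against 136 in the controls). *Wt1* stood at 133 CPM (118 to 149) against 47.2 (44.4 to 50.1) and *Gpm6a* at 220 (201 to 240) against 57.8 (54.7 to 61.0). *Aldh1a2* stood at 121 against 27.8, *Wnt2b* at 237 against 56.3 and *Upk3b* at 37.3 against 6.07. For each of these the mesothelium-rich value was higher than that of the rest, as in the controls, and except for *Upk3b* both values lay above the controls' values of the same kind.

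Some genes of the comparison in controls did not keep their contrast in the CaV1.1 KO. *C3* stood at 234 CPM (215 to 256) against 218 (212 to 224). The section had 76 spots rich in hepatocyte transcripts, 0 of them mesothelium-rich, and the hepatocyte list held 748 raw CPM against 6884. The part of liver in the values of *C3* was not tested. *Clec3b* stood at 82.9 (71.3 to 95.8) against 103 (99.3 to 108), below all control values, and *Pi16*, another fibroblast gene, at 5.01 against 5.59. *Nid2* (nidogen-2), a basement membrane linker, stood at 1290 (1243 to 1339) against 436 (427 to 444), above the 284 and 341 of mesothelium-rich spots in the controls. Muscle genes held 34371 raw CPM against 93785, and *Myh8* 5391 CPM against 16969. The median spot of this section held fewer UMIs, 12152 in mesothelium-rich spots and 17678 in the rest, against 22968 and 23001 in control 1 and 23642.5 and 27332 in control 2, and the part of depth in these values was not tested.

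In the β-cat cKO the chosen spots held a mixture. *Krt7* stood at 2205 CPM and *Krt19* at 944 in chosen spots, while *Lrrn4* stood at 135 and *Wt1* at 34.7 (30.3 to 39.5) against 33.2 (31.6 to 34.9) in the rest. Squamous genes took 24444 raw CPM of the chosen spots against 485 of the rest, led by *Krt4*, with *Krt4* at 10292 CPM against 222 and *Krt15* at 7719 against 206. Smooth muscle genes took 3422 raw CPM against 891, with *Tagln* the most abundant.

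Splitting the chosen spots of the β-cat cKO separated these signals. In raw CPM the 123 squamous ones held 3006 of *Krt7* but 41.3 of *Lrrn4* and 16.5 of *Wt1*, whereas the other 92 held 613, 511 and 112. The median spot held 8.06 UMIs of the other mesothelial genes per 10000 in the former, 15.1 in the latter and 1.53 in the rest of the section, against 6.35 and 8.81 in mesothelium-rich spots of controls 1 and 2. This sum includes *Krt8*, *Pdpn* and *Upk1b*, which other epithelia also make, so it does not show mesothelial transcripts in the squamous spots. With squamous spots left out before ranking, *Wt1* stood at 98.0 CPM (87.8 to 109) against 30.8 (29.1 to 32.6), *Gpm6a* at 239 (223 to 256) against 29.7 (28.0 to 31.5), *Upk3b* at 36.6 against 4.56, *Aldh1a2* at 70.8 against 13.2 and *Krt14* at 99.2 against 9.78. With the squamous spots included, the 15 other mesothelial genes together held 988 raw CPM against 232, but *Wt1* showed almost no contrast. Without them the contrast of *Wt1* was present. *C3* then stood at 188 (174 to 203) against 17.2 (15.9 to 18.6), *Clec3b* at 731 against 363 and *Wnt2b* at 154 against 24.8. These chosen spots also held *Alb* at 270 against 4.89 and *S100a9* at 194 against 15.0, and the part of liver or blood cells in them was not tested.

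**Figure D5:**
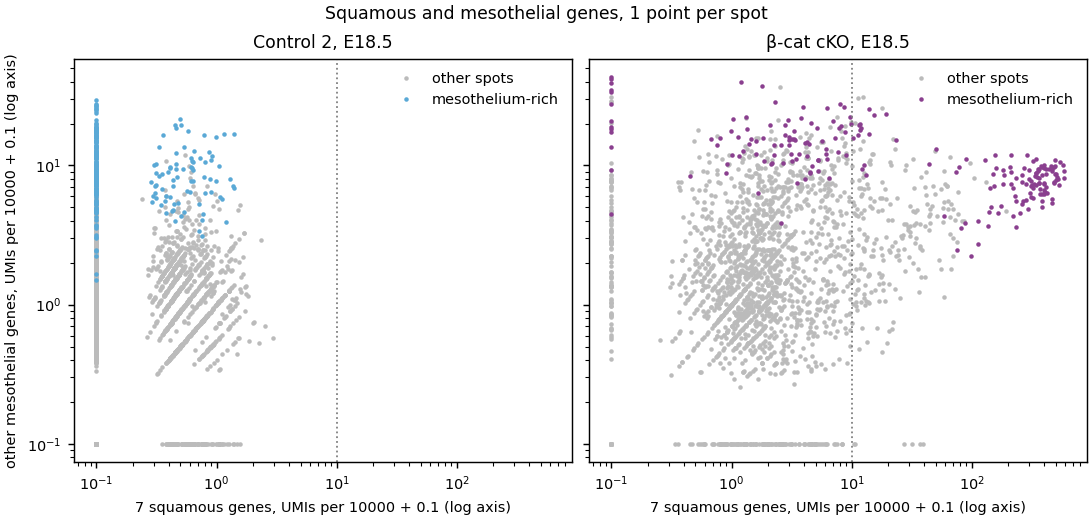
UMIs of 7 squamous epithelium genes (x axis) and of 15 mesothelial genes the rule did not use (y axis), both per 10000 UMIs, for each kept spot of E18.5 control 2 and of the β-cat cKO, with the spots chosen by the rule marked and a dotted line at 10 squamous UMIs. Right of the line lie 0 spots of control 2 and 334 of the β-cat cKO, 123 of them among its 215 chosen spots.

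With all 4 sections at E18.5, and no section at E14.5, in 1 edgeR fit, 12 of 14 mesothelial genes were called higher, 0 of 12 muscle genes lower (9 at an unadjusted p under 0.05) and 3 of 12 fibroblast genes higher, where 5.33% of all 13375 genes tested were called higher and 5.38% lower. That fit pooled the controls with the single section of each mutant as if they were replicates, so its calls test neither mutant. With squamous spots left out of that fit, all 12 muscle genes were called lower with a median log2 difference of -1.26, where 2260 of 13326 genes were called higher (17%) and 2430 lower (18.2%).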

How the data were processed

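Per the file headers and labels, the authors aligned and counted probe reads with Space Ranger 2.0.0 or 2.0.1 against mm10, and deposited UMI counts per spot for 19465 genes; barcodes name slide positions and so recur in every section. Here, spots with at least 1000 UMIs were ranked by the 5 genes and the counts summed per section over the top 10% and the rest. The sums were tested with edgeR 4.0.16 (quasi-likelihood test, filterByExpr, TMM, Benjamini-Hochberg adjustment; R 4.3.3) with the section as a block, which left 3 residual degrees of freedom over 10 sums; a section is thus paired with itself, both sums coming from 1 embryo. The rule genes were tested for themselves by ranking on the other 4. DESeq2 1.42.0 was an alternative. Scripts were tested on simulated data. P-values measure the spread between embryos of 1 section each.

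Genes were named by a rule: the 5 rule genes, for each of 30 lists the 4 tested members with the highest CPM in mesothelium-rich spots of the E18.5 controls and the members that fill a count of 5 or fewer or define a cell type, the 12 largest increases and 8 largest decreases among called genes with at least 20 CPM in the higher group and the same direction in both E18.5 controls, and 5 genes each way for stage. Members and lists were chosen with earlier results of these data known. Single genes of some lists are counted but not reported here by name.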

Additional observations from a re-analysis of the deposited data

Results flagged for a closer look

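The 10 genes named for stage are listed here because their difference between mesothelium-rich spots and the rest itself differed between E18.5 and E14.5, tested by the stage term of edgeR's quasi-likelihood fit with Benjamini-Hochberg adjustment. Larger at E18.5 were *C3* (complement component) by 4.35 on the log2 scale, *Myo5b* (myosin motor of apical recycling) by 3.79, *Galnt6* (mucin-type glycosyltransferase) by 3.79, *Slc39a8* (metal transporter) by 2.61 and *Nkain4* by 2.57. Smaller at E18.5 were *Tgm2* (transglutaminase) at -2.06, *Podxl* at -1.85, *Shisa4* at -1.36, *Ptx3* (pentraxin) at -1.25 and *Pfn2* (profilin) at -0.90. *Myo5b* stood at 24.2 CPM against 4.18 and 66.5 against 5.04 at E18.5, but at 17.7 against 32.8, 18.9 against 23.0 and 14.7 against 28.9 at E14.5. *Tgm2* stood at 479 against 688 and 562 against 574 at E18.5 and at 154 against 44.5, 224 against 51.2 and 68.5 against 30.9 at E14.5. The difference was called at E18.5 alone for *Myo5b* (at E14.5 -0.64, edgeR adjusted p = 0.118) and at E14.5 alone for *Tgm2* (at E18.5 -0.28, edgeR adjusted p = 0.278). Without E14.5 control 2 the difference for *C3* was 4.0 (edgeR adjusted p = 0.0601), and without E14.5 control 1 that for *Tgm2* was -2.03 (edgeR adjusted p = 0.126) and that for *Nkain4* 2.36 (edgeR adjusted p = 0.0587). *Galnt6* (edgeR adjusted p = 0.177, 0.0891 and 0.0881 without E14.5 control 1, 2 or 3), *Slc39a8* (0.083, 0.0891 and 0.0727), *Shisa4* (0.169, 0.0891 and 0.0951), *Ptx3* (0.127, 0.0891 and 0.0858) and *Pfn2* (0.204, 0.119 and 0.0858) lost their call without any 1 of the E14.5 controls, and *Podxl* without E14.5 control 1 (0.083). *Myo5b* kept its call with any 1 section left out, and none of the 10 was called without the section block. Nor was any of them called against other spots outside muscle, where the sign was the same for all 10 and edgeR's adjusted p ran from 0.0887 (*Myo5b*, 2.22) to 0.954 (*Shisa4*, -0.31).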

How the results depend on the processing

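Against the rest of the section, genes called higher were 1119 with DESeq2, 713 with all 4 sections at E18.5, 1015 without the replicate block and 3067 without TMM, and 702 to 1587 with a section left out. Genes called lower were 3108 with the top 20% of spots, 714 with the E18.5 controls alone, 719 with all 4 sections, 965 without the replicate block and 622 without TMM, and 999 to 2983 with a section left out. Outside muscle, higher calls were 135 with DESeq2, 405 without a filter on low counts, 129 with the top 20%, 41 with all 4 sections and 19 without the replicate block (71 to 292 with a section left out), and lower calls 40, 490, 133, 60 and 0 in the same order and 123 with liver spots left out (79 to 321). For stage, larger differences were 68 with DESeq2, 321 without the filter, 13 with the top 5%, 55 with the top 20%, 0 without the replicate block, 5 against other spots outside muscle and 128 without TMM (4 to 352), and smaller ones 34, 68, 49 with the top 20%, 3 with at least 5000 UMIs per spot, 0 without the replicate block and 11 without TMM (0 to 877). Of the rule genes *Lrrn4* lost its call with all 4 sections (2.87). The sign turned for *S100a9* with the top 5% (-1.26), all 4 sections (-0.58) and liver spots left out (-0.015), for *Ngp* (-1.73 and -0.45) and *Camp* (-1.85 and -0.16) with the top 5% and all 4 sections, and outside muscle with a section left out for *Ahsg* (-3.48 to 0.49) and *Rbp4* (-3.24 to 0.092), both positive without control 1, and *C3* (-0.67 to 2.03), negative without control 2. The causes were not tested. The liver and squamous limits, the stage term outside muscle and the fit without TMM were chosen after seeing the data. Depth limits genes of few UMIs, such as *Krt15*, with 2 and 9 UMIs in mesothelium-rich spots of controls 1 and 2.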
